A study of Mus musculus with 19 samples.

Results

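The miR-23/24/27 group holds 5 mature microRNAs, miR-23a, miR-23b, miR-24, miR-27a and miR-27b, which are 5 of the 528 miRNA names in the deposited table. They were chosen by name, as the products of the mouse miR-23a/27a/24-2 and miR-23b/27b/24-1 clusters, and all 5 were measured in every library and passed the filter on low values. Reads came from RNA of 19 to 24 nt that was bound to Ago2, an Argonaute protein that holds a mature miRNA on its target messenger RNA. Levels are in RPM, the reads of a name per 1000000 miRNA reads of its library, so each value is relative to the other miRNAs. In these bulk samples, fewer cells of a type and less RNA per cell cannot be told apart.

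All mice were of age P56. Purkinje libraries (n = 3, each from 3 pooled tissues) were made with anti-Myc from cerebellum, and Cerebellum libraries (n = 3, 1 tissue each) with anti-Ago2 from the whole tissue, both on a C57BL/6 and black swiss background. PV, SST and Gad2 libraries (n = 2, 2 and 3, each from 4 pooled tissues) were made with anti-Myc from mice on a C57BL/6 and 129 background. Camk2a libraries (n = 3, anti-Myc) and Neocortex libraries (n = 3, anti-Ago2) came from 1 tissue each on a C57BL/6 and BALB/c background. Purkinje, PV (parvalbumin), SST (somatostatin), Gad2 and Camk2a name the class of neuron that carried Myc-tagged Ago2; the sources used here do not give the alleles that directed the tag to each class. Purkinje cells are the inhibitory output neurons of the cerebellar cortex, Camk2a is expressed by excitatory neurons, Gad2 by inhibitory neurons in general, and PV and SST mark subclasses of inhibitory interneurons. Cell class, antibody and, for several pairs of groups, strain and pooling change together, and their parts cannot be told apart. The labels do not say that replicates came from separate animals, so p-values measure the spread between these libraries, which may be technical.

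Each miR-23/24/27 cluster is transcribed as 1 precursor that is cut into 3 hairpins, and each hairpin gives a mature miRNA from its 3′ arm. The seed, near the 5′ end of the miRNA, pairs with target messenger RNAs and largely sets which of them are repressed. The clusters are best known from blood vessels, where miR-23 and miR-27 act in the growth of new vessels, and miR-24 is known for limiting cell death and proliferation.

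The mature sequences are shown because the miR-27 paralogs differ so little that counting them apart rests on 1 base. They are written 5′ to 3′ as RefSeq gives them for GRCm38.p6, with seed bases 2 to 8 in capitals.
miR-23a-3p: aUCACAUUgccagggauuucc
miR-27a-3p: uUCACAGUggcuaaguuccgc
miR-27b-3p: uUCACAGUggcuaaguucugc
miR-24-3p: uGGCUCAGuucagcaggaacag

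miR-27a and miR-27b have the same seed and differ by 1 substitution, C19U, with positions counted from 1 at the 5′ end of miR-27a. Among 1679 mature mouse miRNAs in the RefSeq table, no other shared that seed. The seed of miR-24 occurred in 4 others. miR-23b-3p has no entry in that table, so its sequence is not shown, and other missing names could share a seed. The sequence of miR-24 is identical from both clusters, so its reads are the sum of Mir24-1 and Mir24-2 and cannot be divided between them.

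On GRCm38.p6 the hairpins Mir23a, Mir27a and Mir24-2 lie within 404 bp at chr8:84208518-84208921 on the plus strand. Mir23a and Mir27a are intergenic in the GENCODE M21 annotation, with Zswim4 as the nearest protein-coding gene, 2086 and 1920 bp away, and Mir24-2 overlaps an exon of the lincRNA Gm26532. Mir23b, Mir27b and Mir24-1 lie within 792 bp at chr13:63300484-63301275 on the plus strand, inside the protein-coding gene 2010111I01Rik. Mir23b is in an intron of that gene, Mir27b and Mir24-1 each overlap an annotated exon, and all 3 lie in an intron of Fancc on the opposite strand. The deposited table carries no positions and was mapped to mm9, so these places come from matching names and no coordinate was converted.

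The libraries held 1229834 to 14249087 miRNA reads, a range of 11.6-fold, and 1 read was worth 0.0702 to 0.813 RPM. The least read member, miR-27a, had 42 to 79 reads in the Purkinje libraries and at least 358 in every other library. Neuronal marker miRNAs (4 of 4 listed names in the table, miR-124, miR-128, miR-137 and miR-138) were detected in every group, with summed levels of at least 169780 RPM in each library. miR-124 alone had at least 145570 RPM in each, and the 4 names did not move together. miR-137 had 8.01 to 11.5 RPM in Purkinje and 6888 to 12291 RPM in Neocortex libraries. miR-138 had 36716 to 53529 RPM in Purkinje and 3536 to 5745 RPM in Neocortex libraries. The vascular list (3 of 6 names in the table, miR-126-3p, miR-126-5p and miR-143) summed to 323 to 424 RPM in Purkinje libraries, 295 to 330 in PV, 734 to 766 in SST, 295 to 354 in Gad2 and 934 to 993 in Camk2a libraries. Whole-tissue libraries had 5810.4 to 6312 RPM in Cerebellum and 7841 to 8178 RPM in Neocortex for the same list.

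Together the 5 miRNAs made up 0.417% ± 0.0529 of miRNA reads in Purkinje, 0.619% ± 0.00424 in PV, 0.756% ± 0.0755 in SST, 0.587% ± 0.0298 in Gad2 and 1.83% ± 0.217 in Camk2a libraries (SD). The whole tissues had 0.631% ± 0.0551 in Cerebellum and 1.21% ± 0.145 in Neocortex. Camk2a libraries gave the group its highest share, and every Camk2a library (1.65% to 2.07%) exceeded every other library of the series. The members did not share 1 order across groups: miR-23a and miR-23b were highest in whole neocortex, and miR-24, miR-27a and miR-27b were highest in Camk2a cells.

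**Figure D1:**
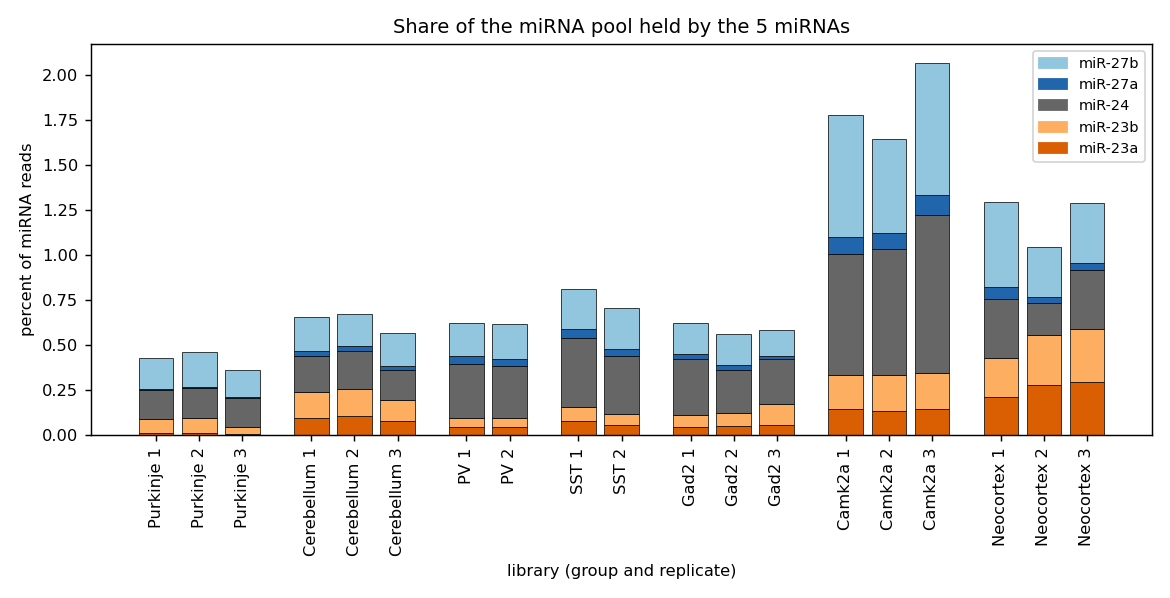
Percent of miRNA reads held by each of the 5 miRNAs in every library, stacked, with libraries named by group and replicate. The 3 Camk2a bars reach 1.65% to 2.07%, and the 3 Purkinje bars, in which miR-23a and miR-27a are barely visible, reach 0.359% to 0.463%.

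miR-23a was the member with the most graded pattern. Its reads stood at 74.2, 86.5 and 34.3 RPM in Purkinje libraries, 429 and 417 in PV, 762 and 539 in SST, and 423, 466 and 564 in Gad2. Camk2a libraries had 1435, 1318 and 1429.6 RPM, Cerebellum 962, 1068 and 766, and Neocortex 2126, 2786 and 2927. By mean level the order was Neocortex, Camk2a, Cerebellum, SST, Gad2, PV and Purkinje, with a 40.2-fold distance from end to end. SST overlapped Gad2 and Gad2 overlapped PV; the other neighbours in this order did not overlap.

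miR-23b, its paralog from chromosome 13, covered a 5.18-fold range of means. It had 798, 834 and 404 RPM in Purkinje libraries, 524 and 499 in PV, 769 and 605 in SST, and 654, 745 and 1176 in Gad2. Camk2a libraries had 1913, 1999 and 2037 RPM, Cerebellum 1447, 1472 and 1189.9, and Neocortex 2172, 2780.2 and 2988. Neocortex, Camk2a and Cerebellum stood apart from each other and from the rest, while Gad2, SST, Purkinje and PV each overlapped the next in that order. Gad2 replicate 3 was the highest of its group for both miR-23 paralogs.

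miR-27a, encoded beside Mir23a, had the lowest mean of the 5 in every group except PV, where miR-23a was slightly lower (423 against 434 RPM). miR-27a had 22.8, 31.6 and 12.4 RPM in Purkinje libraries, 462 and 406 in PV, 521 and 398 in SST, and 298, 275 and 163 in Gad2. Camk2a libraries had 934, 880.3 and 1116 RPM, Cerebellum 291, 279 and 244, and Neocortex 649, 382 and 439.8. Camk2a stood above and Purkinje below all other groups, 43.8-fold apart in mean. Neocortex overlapped SST, SST overlapped PV, and Cerebellum overlapped Gad2.

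miR-27b, with the same seed, covered only a 4.04-fold range of means. It had 1764, 1979 and 1516 RPM in Purkinje libraries, 1833 and 1946 in PV, 2184 and 2255 in SST, and 1670.1, 1711 and 1419.8 in Gad2. Camk2a libraries had 6786, 5249.5 and 7363 RPM, Cerebellum 1856, 1794 and 1838, and Neocortex 4730.1, 2744 and 3332. Camk2a stood above Neocortex and Neocortex above SST without overlap. PV, Cerebellum, Purkinje and Gad2 each overlapped the next in that order.

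miR-24, read from both clusters, covered a 4.54-fold range of means. It had 1629.6, 1698 and 1626 RPM in Purkinje libraries, 2975 and 2896 in PV, 3860.0 and 3232 in SST, and 3149, 2412 and 2487 in Gad2. Camk2a libraries had 6708, 7033 and 8765 RPM, Cerebellum 1984, 2097 and 1643, and Neocortex 3286, 1744 and 3233. Camk2a stood above the rest. SST did not overlap PV, the next in mean. Neocortex overlapped SST, PV, Gad2 and Cerebellum, and its replicate 2 was well below the other 2 Neocortex libraries.

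**Figure D2:**
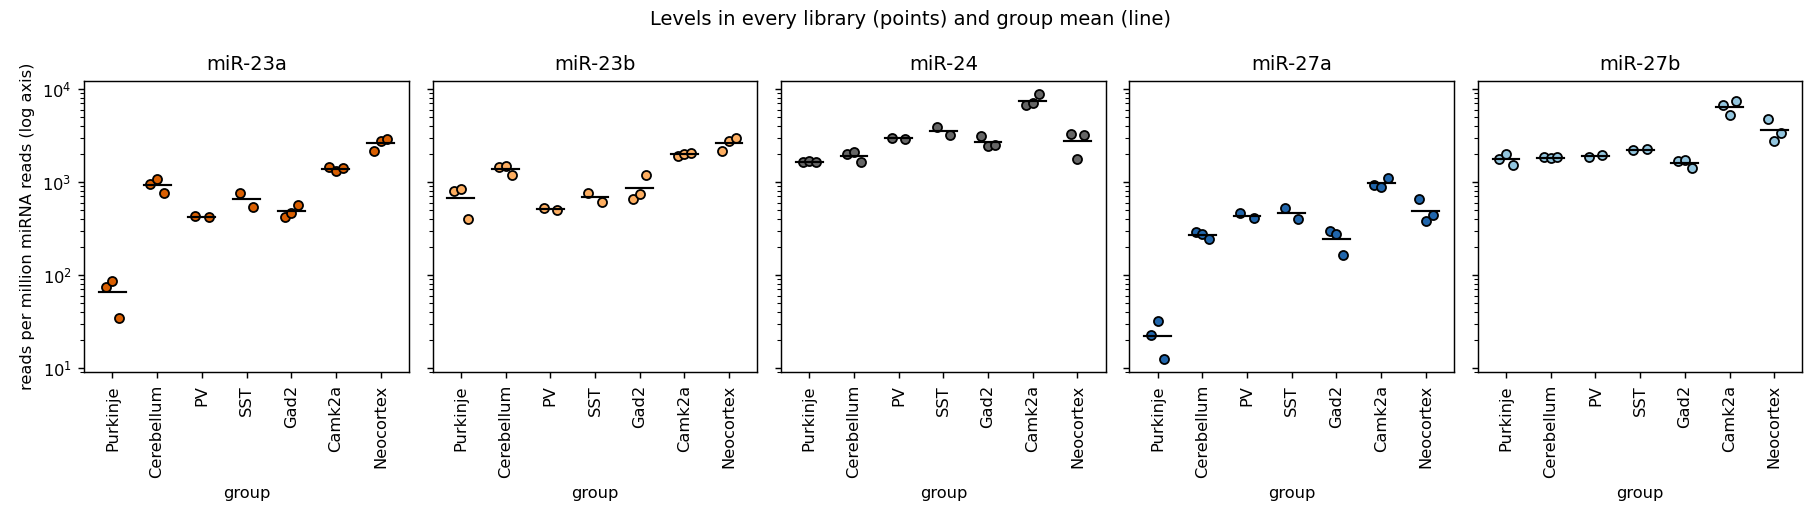
Level of each miRNA in every library, in RPM on a log axis, with 1 point per library and a line at the group mean. miR-23a and miR-27a lie at 34.3 to 86.5 and 12.4 to 31.6 RPM in Purkinje libraries, while miR-27b lies at 1516 to 1979 RPM there.

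Purkinje cells were set against whole cerebellum to ask which miRNAs differ between this cell class and the tissue around it. The miR-23a and miR-27a reads of the chromosome 8 cluster were over 10-fold lower in Purkinje libraries, while miR-27b and miR-24 did not pass the test. miR-23a averaged 65.0 ± 27.3 RPM in Purkinje and 932 ± 153 RPM in Cerebellum libraries (SD, n = 3 each), a log2 change of -3.93 ± 0.25 (SE), or 15.3-fold lower (adjusted p = 2.84e-11, limma with Benjamini-Hochberg adjustment over 522 names). miR-27a averaged 22.3 ± 9.61 RPM in Purkinje and 271 ± 24.6 RPM in Cerebellum libraries, 13.0-fold lower, with a log2 change of -3.70 ± 0.28 (limma adjusted p = 4.02e-10). Neither miRNA overlapped between the groups. Here and below, overlap was counted for the named miRNAs only, so no share over all names stands beside it.

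The chromosome 13 members differed less between Purkinje cells and cerebellum. miR-23b averaged 679 ± 239 RPM in Purkinje and 1369.6 ± 156 RPM in Cerebellum libraries and fell by 1.08 on the log2 scale, 2.11-fold (limma adjusted p = 0.000478). miR-27b averaged 1753 ± 232 RPM in Purkinje and 1829 ± 31.9 RPM in Cerebellum libraries, with a log2 change of -0.07 ± 0.18 that did not pass the test (limma adjusted p = 0.743). miR-24 averaged 1651 ± 40.9 RPM in Purkinje and 1908 ± 236 RPM in Cerebellum libraries, a log2 change of -0.20 ± 0.20 that did not pass either (limma adjusted p = 0.389). For miR-27b and miR-24 the libraries of the groups overlapped.

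In all, 3 of 5 members were lower and none was higher in Purkinje cells, where 37.4% of all names tested were lower and 31.2% higher. The median log2 change was -1.08 over the members and -0.19 over all names. Markers of other cells moved with this comparison. All 3 vascular names, all 4 leukocyte and microglial names, both red blood cell names and all 3 choroid and ependymal names in the table were called lower in Purkinje libraries. So was 1 of 3 oligodendrocyte names. Of the 4 neuronal names 2 were called lower and 1 higher. The leukocyte list summed to 2.96 to 15.6 RPM in Purkinje and 457 to 527 RPM in Cerebellum libraries, the red blood cell list to 34.0 to 50.4 RPM in Purkinje and 1947 to 2507 RPM in Cerebellum libraries, and the choroid list to 9.17 to 15.5 RPM in Purkinje and 1322 to 1805 RPM in Cerebellum libraries. miR-34b-3p of the choroid list was at 0 in every Purkinje library. The part of these cells in the fall of miR-23a and miR-27a was not tested.

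The ratio of paralogs within a library does not depend on how the libraries are scaled. miR-23b had 10.8, 9.65 and 11.8 reads for each miR-23a read in Purkinje libraries, against 1.50, 1.38 and 1.55 in Cerebellum libraries. miR-27b had 77.4, 62.6 and 122 reads for each miR-27a read in Purkinje libraries, against 6.37, 6.44 and 7.55 in Cerebellum libraries. The Purkinje ratios were 7.23-fold higher for the miR-23 pair and 12.3-fold higher for the miR-27 pair, and no library overlapped. The two-sided exact permutation test gave p = 0.1 for each, the smallest that 3 libraries against 3 allow, and 0.15 after Benjamini-Hochberg adjustment over the 18 ratio comparisons run. The other cell classes stayed far from these values: miR-23b to miR-23a averaged 1.07 to 1.74 in PV, SST, Gad2 and Camk2a libraries, and miR-27b to miR-27a averaged 4.38 to 6.85. Against Gad2 cells the Purkinje ratios were 6.18-fold and 12.4-fold higher (two-sided exact p = 0.1 each, adjusted 0.15).

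The sources used here do not give how reads that match both paralogs were assigned, so these ratios and the paralogs' separate levels are uncertain to that extent. In Camk2a libraries miR-23b to miR-23a stood at 1.33, 1.52 and 1.42, against 1.02, 0.998 and 1.02 in Neocortex libraries (two-sided exact p = 0.1, the smallest possible, adjusted 0.15). The Neocortex ratio was thus close to equal reads in all 3 libraries. The part of reads assigned to the wrong paralog was not tested.

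**Figure D3:**
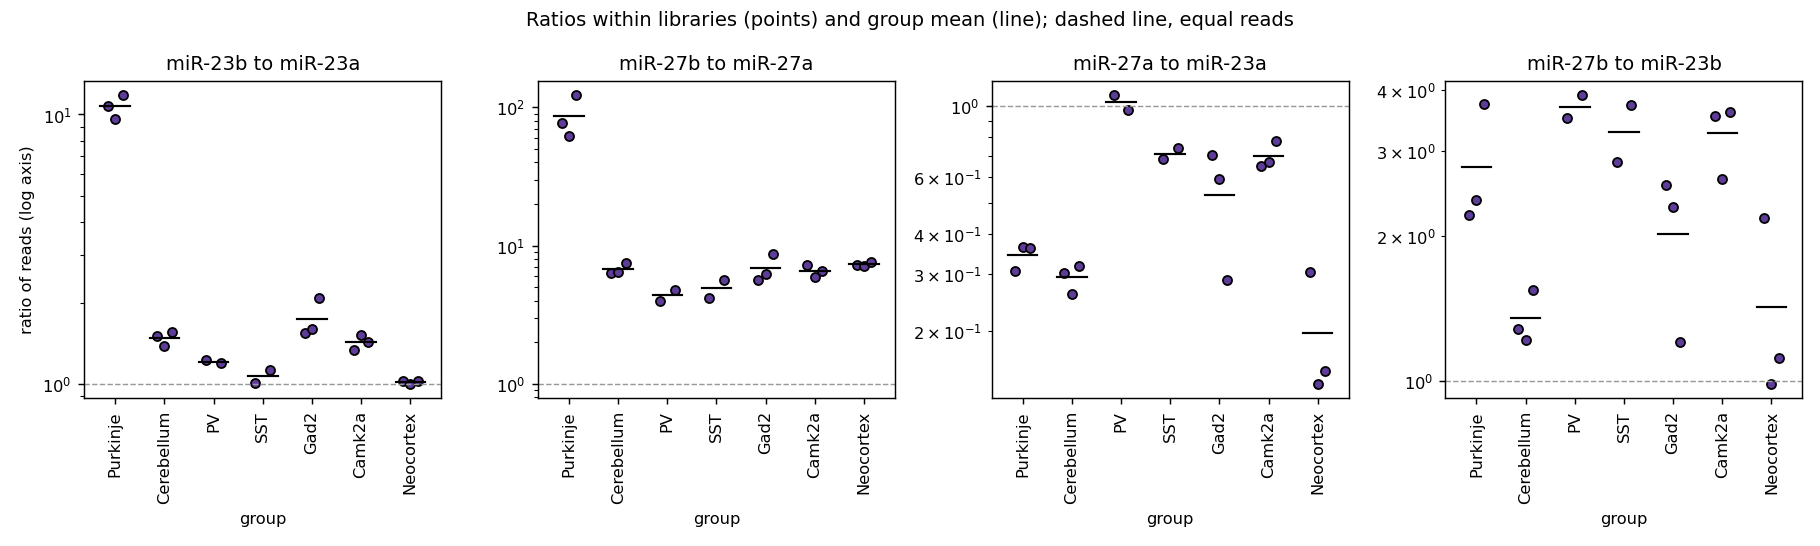
Ratio of reads of pairs of miRNAs within each library on log axes that differ between panels, with 1 point per library, a line at the group mean and, where it falls in the range, a dashed line at equal reads. Purkinje libraries lie at 9.65 to 11.8 for miR-23b to miR-23a and 62.6 to 122 for miR-27b to miR-27a, above every other library.

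Purkinje cells were also set against Gad2 cells, inhibitory neurons of the cerebellum and of the neocortex, both precipitated with anti-Myc. miR-23a and miR-27a were again the members that differed most. miR-23a averaged 65.0 RPM in Purkinje and 484 ± 72.1 RPM in Gad2 libraries, 7.95-fold lower with a log2 change of -2.99 ± 0.25 (limma adjusted p = 2.76e-09). miR-27a averaged 22.3 RPM in Purkinje and 245 ± 72.4 RPM in Gad2 libraries, 11.4-fold lower with a log2 change of -3.51 ± 0.28 (limma adjusted p = 1.36e-09). No library overlapped for either.

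miR-24 was 1.61-fold lower in Purkinje libraries (1651 RPM) than in Gad2 libraries (2683 ± 405 RPM), at a log2 change of -0.69 ± 0.20 (limma adjusted p = 0.00587). That call was lost when libraries were scaled by TMM factors, which gave -0.46 (limma adjusted p = 0.0675). It was also lost with relative log expression factors and DESeq2, while edgeR on recovered reads kept it, at -0.53 (edgeR adjusted p = 0.0289). miR-23b, at 679 RPM in Purkinje and 858 ± 279 RPM in Gad2 libraries, and miR-27b, at 1753 RPM in Purkinje and 1600.2 ± 157 RPM in Gad2 libraries, did not pass (limma adjusted p = 0.21 and 0.575). Thus 3 of 5 members were lower and none higher, against 34.5% of all names lower and 20.5% higher, and the median log2 change was -0.69 over the members and -0.31 over all names. This comparison shares its Purkinje libraries with the one against cerebellum. Strain and pooling also differed between these groups. All 3 choroid and ependymal names were called lower in Purkinje libraries, and 2 of 3 oligodendrocyte names were called higher, with list sums of 9.17 to 15.5 and 2739.9 to 3248 RPM in Purkinje and 76.2 to 92.4 and 679 to 731 RPM in Gad2 libraries. Most of the Gad2 choroid sum was miR-34c, at 49.4 to 71.3 RPM. Of the vascular names 1 was called higher and 1 lower, and 1 leukocyte and 1 red blood cell name were called higher. Of the 4 neuronal names 2 were called lower and 1 higher. Their part was not tested.

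Camk2a cells were set against whole neocortex, with the same strain background and 1 tissue per library in both. Here miR-24, miR-27a and miR-27b were higher in Camk2a cells, miR-23a was lower, and miR-23b did not pass the test. miR-24, the member with the largest rise, averaged 7502 ± 1106 RPM in Camk2a and 2754 ± 876 RPM in Neocortex libraries, a log2 change of 1.49 ± 0.20, or 2.81-fold (limma adjusted p = 5.79e-06). miR-27a averaged 977 ± 124 RPM in Camk2a and 490.0 ± 140.4 RPM in Neocortex libraries and rose by 1.02 ± 0.28 on the log2 scale, 2.04-fold (limma adjusted p = 0.00654). miR-27b averaged 6466 ± 1092 RPM in Camk2a and 3602 ± 1020.3 RPM in Neocortex libraries and rose by 0.87 ± 0.18, 1.82-fold (limma adjusted p = 0.000516). In each of the 3, every Camk2a library was above every Neocortex library.

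miR-23a averaged 1394 ± 66.4 RPM in Camk2a and 2613 ± 427 RPM in Neocortex libraries and fell by 0.89 on the log2 scale, 1.86-fold, without overlap (limma adjusted p = 0.00753). edgeR on the recovered reads gave a smaller log2 change for it, -0.59 (adjusted p = 0.0216). miR-23b averaged 1983 ± 63.4 RPM in Camk2a and 2647 ± 424 RPM in Neocortex libraries, with a log2 change of -0.40 ± 0.24 that did not pass (limma adjusted p = 0.185), although its libraries did not overlap. The counts of 3 members higher and 1 lower stand beside 16.9% of all names higher and 28% lower. The median log2 change was 0.87 over the members and -0.25 over all names. The median of all names moved to -0.06 with TMM scaling, under which miR-24, miR-27a, miR-27b and miR-23a were each still called in the direction given.

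The ratio of neighbours within a cluster differed as well. miR-27a had 0.651, 0.668 and 0.781 reads for each miR-23a read in Camk2a libraries, against 0.305, 0.137 and 0.150 in Neocortex libraries. miR-27b had 3.55, 2.63 and 3.61 reads for each miR-23b read in Camk2a libraries, against 2.18, 0.987 and 1.12 in Neocortex libraries. Neither ratio overlapped between the groups, and both were chosen after the values were seen and carry no test. High ratios were not particular to Camk2a cells. miR-27a to miR-23a averaged 1.03 in PV, 0.711 in SST and 0.528 in Gad2 libraries, and miR-27b to miR-23b averaged 3.70, 3.28 and 2.02. Gad2 libraries overlapped Neocortex libraries in both ratios. The vascular names (3 of 3), leukocyte and microglial names (4 of 4), red blood cell names (2 of 2) and oligodendrocyte names (3 of 3) were all called lower in Camk2a libraries. Of the 4 neuronal names 2 were called higher and 1 lower. The vascular list summed to 934 to 993 RPM in Camk2a and 7841 to 8178 RPM in Neocortex libraries, and the leukocyte list to 2.50 to 4.27 RPM in Camk2a and 275 to 345 RPM in Neocortex libraries. The red blood cell list summed to 9.18 to 13.2 RPM in Camk2a and 1511 to 3746 RPM in Neocortex libraries, and the oligodendrocyte list to 665 to 799 RPM in Camk2a and 2069 to 3278 RPM in Neocortex libraries. The part of these cells in the lower miR-23a level and in the higher levels of the other members was not tested.

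Gad2 cells had lower levels than whole neocortex for 4 of the 5 members, and miR-24 did not pass the test. The miR-23 paralogs fell most. miR-23a averaged 484 RPM in Gad2 and 2613 RPM in Neocortex libraries, a log2 change of -2.43 ± 0.25, or 5.38-fold (limma adjusted p = 1.86e-07). miR-23b averaged 858 RPM in Gad2 and 2647 RPM in Neocortex libraries, a log2 change of -1.66 ± 0.24, or 3.16-fold (limma adjusted p = 9.49e-06). miR-27a and miR-27b, at 245 and 1600.2 RPM in Gad2 and 490.0 and 3602 RPM in Neocortex libraries, had log2 changes of -1.01 and -1.14 (limma adjusted p = 0.00603 and 2.41e-05). All 4 were without overlap. A fit of only the Gad2 and Neocortex libraries, paired by replicate number, gave larger adjusted p-values for these 4. By limma they were 0.00248 for miR-23a, 0.00451 for miR-23b, 0.028 for miR-27a and 0.01465 for miR-27b.

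miR-24 averaged 2683 RPM in Gad2 and 2754 RPM in Neocortex libraries, with a log2 change of 0.01 ± 0.20 (limma adjusted p = 0.972). Its sign turned without Neocortex replicate 2 (-0.29) and without Gad2 replicate 1 (-0.11), and neither value passed. Of all names 24.3% were lower and 20.7% higher, and the median log2 change was -1.14 over the members and -0.09 over all names. This comparison shares its Neocortex libraries with the one for Camk2a cells. Vascular (3 of 3), leukocyte (4 of 4), red blood cell (2 of 2) and oligodendrocyte names (3 of 3) were called lower in Gad2 libraries here as well. Of the 4 neuronal names 2 were called lower and 1 higher, and of the 3 choroid names 1 was called lower and 1 higher. In Gad2 libraries the 4 lists summed to 295 to 354, 1.43 to 9.17, 8.56 to 16.2 and 679 to 731 RPM, against the Neocortex sums given above. Their part in these changes was not tested.

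The cell-to-tissue change was also compared between the regions, as the Purkinje minus Cerebellum change less the Gad2 minus Neocortex change. The p-values of this contrast come from the fit without pairing. This contrast was added after the values were seen, and 45.8% of all names passed in it. miR-27a fell further in the cerebellar pair, by 2.69 ± 0.40 on the log2 scale (limma adjusted p = 1.12e-05), and so did miR-23a, by 1.50 ± 0.36 (limma adjusted p = 0.00159). miR-27b went the other way, with a difference of 1.07 ± 0.25 (limma adjusted p = 0.00135), its log2 changes being -0.07 in Purkinje cells and -1.14 in Gad2 cells. The differences for miR-23b (0.58 ± 0.34) and miR-24 (-0.21 ± 0.28) did not pass (limma adjusted p = 0.179 and 0.592).

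The inhibitory classes of the neocortex were set against the excitatory Camk2a cells, all with anti-Myc, to compare cell classes without the whole-tissue antibody. All 5 members were lower in each of Gad2, PV and SST cells, and no library of an inhibitory class overlapped a Camk2a library for any member. The share of all names without such overlap was not counted. The 3 comparisons share the Camk2a libraries, and strain and pooling differ between Camk2a and the inhibitory classes. The vascular list summed to 295 to 354 RPM in Gad2, 295 to 330 RPM in PV and 734 to 766 RPM in SST libraries, against 934 to 993 RPM in Camk2a libraries, and 2, 2 and 0 of its 3 names were called lower, with 1 called higher in PV cells. In PV and in SST cells 2 of 3 oligodendrocyte and 2 of 4 leukocyte names were called higher than in Camk2a cells. The oligodendrocyte list summed to 905 to 1112 RPM in PV, 1008 to 1217 RPM in SST and 665 to 799 RPM in Camk2a libraries, and the leukocyte list to 12.4 to 14.7 RPM in PV, 10.9 to 13.4 RPM in SST and 2.50 to 4.27 RPM in Camk2a libraries. miR-142-3p of the leukocyte list was at 0 in both SST libraries. In SST cells 2 of 3 choroid and 1 of 2 red blood cell names were also called higher, at list sums of 365 to 371 and 31.3 to 39.1 RPM in SST and 63.2 to 89.0 and 9.18 to 13.2 RPM in Camk2a libraries. Most of the SST choroid sum was miR-34c, at 232 to 243 RPM in SST and 56.7 to 62.6 RPM in Cerebellum libraries. miR-204 of that list went the other way, with 127 to 129 RPM in SST and 1256 to 1730 RPM in Cerebellum libraries. In Gad2 and in PV cells 1 choroid name was called higher and 1 lower, and in Gad2 cells 1 oligodendrocyte name was called higher. Of the 4 neuronal names 2 were called lower in each of the 3 classes, with 1 called higher in PV and in SST cells. The part of these cells was not tested.

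In Gad2 cells the miR-27 paralogs fell most. miR-27a averaged 245 RPM in Gad2 and 977 RPM in Camk2a libraries, 4.10-fold lower (log2 change -2.03 ± 0.28, limma adjusted p = 8.44e-06). miR-27b averaged 1600.2 RPM in Gad2 and 6466 RPM in Camk2a libraries, 4.01-fold lower (limma adjusted p = 4.97e-08). miR-23a, miR-24 and miR-23b were 2.90-fold, 2.80-fold and 2.39-fold lower (limma adjusted p = 6.31e-05, 5.32e-06 and 0.00031). Of all names 16.7% were lower in Gad2 cells, and the median log2 change was -1.53 over the members and 0.09 over all names.

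In PV cells the largest change was that of miR-23b. It averaged 511 ± 17.7 RPM in PV and 1983 RPM in Camk2a libraries, 3.88-fold lower (log2 change -1.96 ± 0.27, limma adjusted p = 4.87e-06). miR-27b, at 1889.9 ± 79.8 RPM in PV and 6466 RPM in Camk2a libraries, was 3.39-fold lower (limma adjusted p = 3.51e-07). miR-23a, miR-24 and miR-27a were 3.29-fold, 2.54-fold and 2.24-fold lower (limma adjusted p = 4.43e-05, 4.71e-05 and 0.00471). Without PV replicate 2 the miR-27a change, -1.07, no longer passed (limma adjusted p = 0.0521). Of all names 22.4% were lower in PV cells, and the median log2 change was -1.72 over the members and 0.11 over all names.

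In SST cells the b paralogs fell most. miR-23b averaged 687 ± 116 RPM in SST and 1983 RPM in Camk2a libraries, 2.90-fold lower (log2 change -1.54 ± 0.27, limma adjusted p = 9.74e-05). miR-27b averaged 2219 ± 49.8 RPM in SST and 6466 RPM in Camk2a libraries, 2.88-fold lower (log2 change -1.53 ± 0.20, limma adjusted p = 3.43e-06). miR-23a, miR-27a and miR-24 were 2.17-fold, 2.13-fold and 2.11-fold lower, with log2 changes of -1.12, -1.09 and -1.08 (limma adjusted p = 0.00299, 0.00781 and 0.000502). Without SST replicate 2 the changes of miR-23a (-0.87) and miR-27a (-0.90) no longer passed (limma adjusted p = 0.0612 and 0.0883).

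Of all names 14.2% were lower in SST cells, and the median log2 change was -1.12 over the members and 0.54 over all names. TMM scaling brought the median of all names to -0.0048 and the changes of miR-23a, miR-24 and miR-27a to -1.72, -1.68 and -1.70. Relative to the median of all names the 5 changes ran from -2.08 to -1.62 as deposited and from -2.14 to -1.67 with TMM scaling.

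PV and SST cells, the inhibitory interneuron classes with 2 libraries each, showed no difference that passed the test in any member. limma called none of the 5 at an unadjusted or an adjusted p under 0.05, and edgeR and DESeq2 on recovered reads also called none at either, where limma called 29.1% of all names. On the deposited scale the widest difference was that of miR-23a, 423 ± 8.39 RPM in PV and 651 ± 158 RPM in SST libraries, at a log2 change of -0.60 ± 0.31 (limma adjusted p = 0.164). miR-27a was closest, at 434 ± 39.7 RPM in PV and 459.6 ± 86.6 RPM in SST libraries (log2 change -0.07 ± 0.35, limma adjusted p = 0.909). The median log2 change was -0.27 over the members and -0.42 over all names. With TMM scaling the median of all names was 0.03, and miR-23b, miR-24, miR-27a and miR-27b turned to small positive values of 0.14 to 0.49, which did not pass. The order also depended on the scaling, since miR-23a was then the closest, at -0.04, and miR-27a the widest, at 0.49. Of the vascular names 2 of 3 were called lower and 1 higher in PV than in SST cells, and 2 of 3 choroid and 1 of 3 oligodendrocyte names were called lower. Of the 4 neuronal names 1 was called higher and 1 lower. Their part was not tested.

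**Figure D4:**
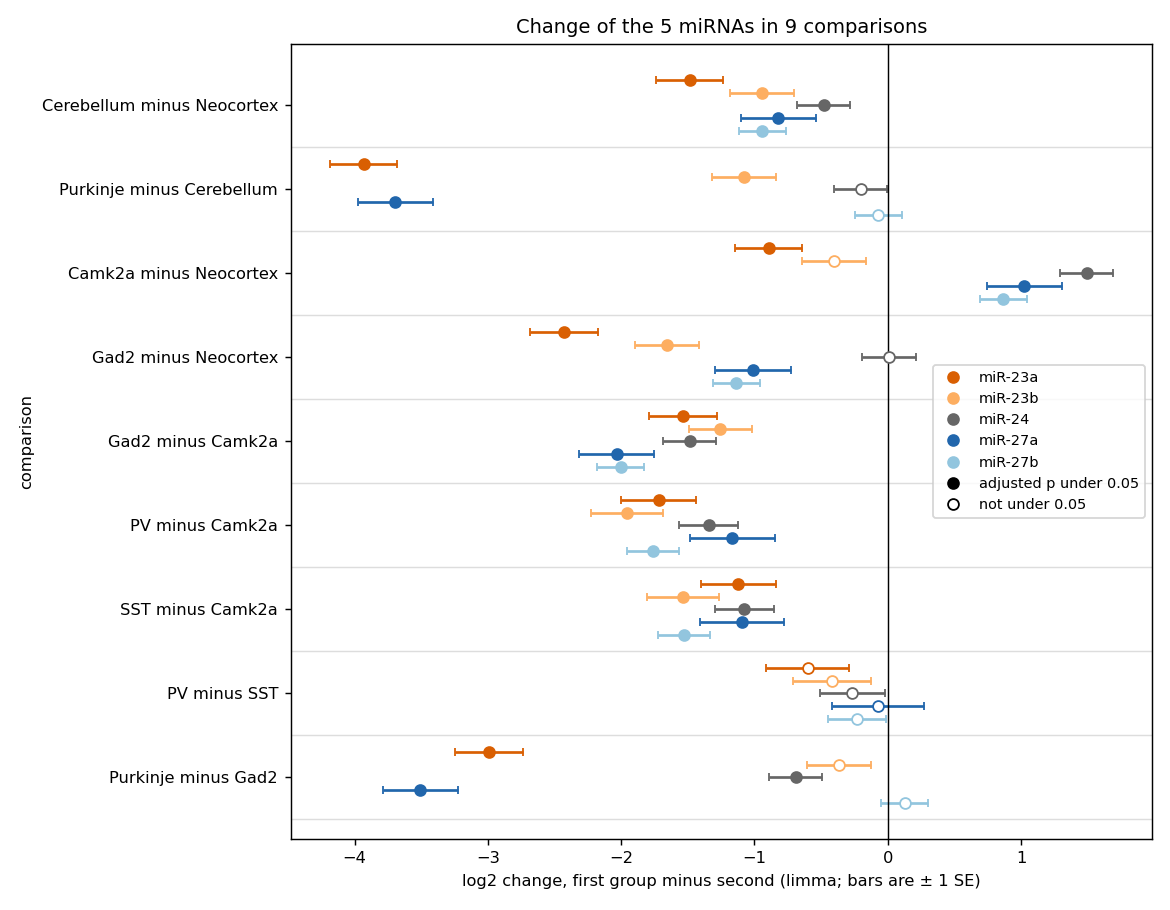
Log2 change of each miRNA, first group minus second, in the 9 comparisons (limma), with bars of 1 SE and filled points at an adjusted p under 0.05. All 5 points are filled and negative for Gad2, PV and SST minus Camk2a, while 3 of 5 are positive and filled for Camk2a minus Neocortex.

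Between the whole tissues, all 5 members were lower in cerebellum than in neocortex. miR-23a averaged 932 RPM in Cerebellum and 2613 RPM in Neocortex libraries, 2.80-fold lower (log2 change -1.49 ± 0.25, limma adjusted p = 4.26e-05). miR-23b and miR-27b, at 1369.6 and 1829 RPM in Cerebellum and 2647 and 3602 RPM in Neocortex libraries, were each 1.92-fold lower (limma adjusted p = 0.00234 and 0.000127). miR-27a, at 271 RPM in Cerebellum and 490.0 RPM in Neocortex libraries, was 1.77-fold lower (limma adjusted p = 0.0192). miR-24, at 1908 RPM in Cerebellum and 2754 RPM in Neocortex libraries, was 1.39-fold lower with overlapping libraries (limma adjusted p = 0.0476).

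The last 2 calls depended on scaling and on single libraries. With TMM factors the log2 changes were -0.16 for miR-24 and -0.50 for miR-27a (limma adjusted p = 0.544 and 0.115), and the changes of miR-23b and miR-27b shrank to -0.63 and -0.62 and still passed. The calls of miR-24 and miR-27a were also lost with relative log expression factors and DESeq2. edgeR on recovered reads kept them, at -0.51 and -0.83 (edgeR adjusted p = 0.0369 and 0.00683). For miR-24 only 1 of the 6 libraries, Neocortex replicate 2, could be left out without losing the call, and the log2 change was then -0.78. The miR-27a call was lost without Cerebellum replicate 3 (-0.75) or Neocortex replicate 1 (-0.60). Of all names 36% were lower in cerebellum and 19.5% higher, with a median log2 change of -0.94 over the members and -0.40 over all names, which moved to -0.14 with TMM scaling. Of the vascular names 1 of 3 was called lower in cerebellum, while 2 of 3 oligodendrocyte and 1 of 4 leukocyte names were called higher. Of the neuronal names 3 of 4 were called lower and 1 higher. All 3 choroid and ependymal names were called higher, with list sums of 1322 to 1805 RPM in Cerebellum and 61.7 to 90.5 RPM in Neocortex libraries. Their part was not tested.

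The other arm of each hairpin is normally discarded, and the table names it with an asterisk. Summed over the 19 libraries, there were 43 reads of miR-23a*, 31 of miR-23b*, 29 of miR-24-1*, 26 of miR-24-2* and 16 of miR-27a*, against 60983 to 484611 reads of the members. miR-23a* had no read among 7939573 in the Purkinje libraries, which allows a level of up to 0.378 RPM over that group, and 6 reads (0.949 RPM) in the Cerebellum libraries. Of these 5 rare arms limma called miR-23a*, miR-23b* and miR-24-2* lower in some comparisons and none higher, and it called miR-24-1* and miR-27a* in none of the 9. miR-24-2* was called lower in Cerebellum, Camk2a and Gad2 than in Neocortex libraries, with 1, 6 and 0 reads against 15 (limma adjusted p = 0.0021, 0.0114 and 0.000429). miR-23a* was called lower in Purkinje than in Cerebellum libraries (limma adjusted p = 0.000155) and, with 2 reads in Gad2 libraries, lower than in Neocortex (15 reads) and Camk2a (17 reads). miR-23b*, with 2 reads in Gad2 and none in SST libraries against 20 in Camk2a libraries, was called lower in both (limma adjusted p = 0.031 and 0.0114). Each of these calls rests on few reads in libraries of unequal depth. The limma fit to log2 values does not model counting error, so these p-values can be too small for such counts.

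miR-27b*, the 5′ arm of Mir27b, was the exception, with 688 reads and at least 3 in every library. Its sequence is shown because its change between groups differed from that of miR-27b, which comes from the same hairpin; bases 2 to 8 are in capitals.
miR-27b-5p: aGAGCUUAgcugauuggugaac

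In Camk2a libraries miR-27b* had 5.04, 8.58 and 6.90 RPM, against 17.7, 13.9 and 15.7 RPM in Neocortex libraries. It was 2.33-fold lower without overlap (log2 change -1.22 ± 0.41, limma adjusted p = 0.0212), in the comparison in which miR-27b was higher. The 5′ arm therefore stood at 0.110% ± 0.0468 of miR-27b reads in Camk2a and 0.451% ± 0.0691 in Neocortex libraries (SD, n = 3 each), without a test of that share. Every other group was also below Neocortex, with means of 0.073% in PV, 0.168% in Purkinje, 0.195% in Gad2, 0.198% in SST and 0.241% in Cerebellum libraries.

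miR-27b* was also lower in Gad2 than in Neocortex libraries, at 3.16, 2.29 and 3.72 RPM in Gad2 libraries (log2 change -2.35 ± 0.41, limma adjusted p = 1e-04). It was lower in Gad2 and PV than in Camk2a libraries as well (limma adjusted p = 0.0364 and 0.000418). Cerebellum libraries, at 2.44, 5.16 and 5.56 RPM (3, 17 and 10 reads), were lower than Neocortex by 1.90 on the log2 scale (limma adjusted p = 0.000556). PV libraries had the lowest levels, 1.77 and 0.962 RPM (19 and 11 reads), against 4.69 and 4.07 RPM (6 and 10 reads) in SST libraries. The log2 change was -1.67 ± 0.51 (limma adjusted p = 0.0168), where the median over all names was -0.42. Its value under other scalings is not given here. Purkinje libraries had 1.94, 2.40 and 4.14 RPM (4, 6 and 14 reads), overlapping Cerebellum libraries (limma adjusted p = 0.208).

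miR-128, an abundant neuronal miRNA, holds the letters of the miR-27 seed in its own 5′ end and is shown for that reason, with bases 2 to 8 in capitals.
miR-128-3p: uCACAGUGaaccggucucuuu

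The 8 letters UCACAGUG are bases 2 to 9 of miR-27b and bases 1 to 8 of miR-128, so their seeds are offset by 1 base. miR-128 was far more abundant than miR-27b where both were high, with 153461 ± 14821 RPM in Camk2a and 78483 ± 12056 RPM in Neocortex libraries (SD, n = 3 each). It rose in Camk2a cells by 0.97 ± 0.19 on the log2 scale (limma adjusted p = 0.000417), beside 0.87 for miR-27b. In the inhibitory classes miR-128 stood at 1888 ± 155 RPM in PV, 2344 ± 283 RPM in SST, 9122 ± 3497 RPM in Gad2 and 2206 ± 216 RPM in Purkinje libraries. In PV libraries the mean of miR-27b was 1889.9 RPM, beside 1888 RPM for miR-128. Both RPM values are shares of reads, and ligation and amplification can differ between sequences.

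Likeness across the 7 group means was measured by Pearson correlation of mean log2(RPM + 0.1) with each of 166 names of at least 100 RPM, as a description over points that share the scaling of their libraries. The arms of the 6 hairpins were left out of these names, and the members are compared with each other separately. The names most like miR-23a were miR-674 (0.927), miR-221 (0.924) and miR-222 (0.915). For miR-27a they were miR-674 (0.94), miR-335-5p (0.912) and miR-218 (0.899). Among the members themselves, the neighbours on chromosome 8 were the closest pair, at 0.879 for miR-23a with miR-27a.

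Outside the clusters, the names most like miR-23b were miR-128 (0.959), miR-135a (0.916) and miR-222 (0.888), for miR-27b miR-128 (0.803), miR-132* (0.799) and miR-872 (0.756), and for miR-24 miR-132 (0.837), miR-323-3p (0.788) and miR-29a (0.787). miR-24 was closer to miR-27b (0.814) and miR-27a (0.753) than to miR-23a (0.514) and miR-23b (0.332). The paralogs were less alike than the chromosome 8 neighbours, at 0.764 for miR-23a with miR-23b and 0.593 for miR-27a with miR-27b. The chromosome 13 neighbours, miR-23b with miR-27b, stood between these paralog pairs, at 0.727. The correlations rest on 7 points each, and Purkinje cells are the lowest point for both miR-23a and miR-27a.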

How the data were processed

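Small RNA libraries from immunoprecipitated Ago2 of mouse brain were sequenced on an Illumina Genome Analyzer II, per the labels' protocols. Reads were mapped with Bowtie to mm9, per the submitters' processing notes; the version of Bowtie and the treatment of reads that match several names are not given in the sources used here. The signal deposited by the authors is each library's miRNA reads scaled to a common total. The file headers call the values per 1000000, yet each deposited column sums to 10000000, and RPM is therefore the deposited value over 10. All values up to 1000 reads in each of the 19 libraries were whole multiples of 1 read within 0.1, which gave the reads and depth of each library. Limits at a count of 0 allow for 3 reads and cover counting error alone, because amplified reads with no molecular identifier need not be separate molecules. Replicates differed by more than counting error, by a chi-square of 25.8 to 609.5 for each degree of freedom. 120 blank rows of the table were left out.

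limma 3.58.1 in R 4.3.3 was fitted with a trend to log2(deposited value + 1) as 1 fit of 7 group means, on the 522 of 528 names that reached 1 on the deposited scale in 2 or more libraries. Each comparison's p-values had a Benjamini-Hochberg adjustment and were called under 0.05. Fold changes are 2 to the power of the log2 change on that scale, which understates changes of rare names. Ratios were tested on log2 values by two-sided exact permutation. Alternatives were TMM and relative log expression factors, a pseudocount of 10, no filter, a replicate block, edgeR 4.0.16 and DESeq2 1.42.0 on recovered reads, and leaving out each library. The limma fit was also run on simulated reads, with the same mean profile in all groups apart from changed names. That run did not include the shifts of the median over all names seen here, and nothing is concluded from it. Same-numbered libraries deviated together, with every pair's correlation over 0.1, only for Gad2 and Neocortex among comparisons with 3 pairs (0.302, 0.184 and 0.201). A fit that paired those libraries by number was therefore added, although strain and pooling differ between the groups. Over all 52 same-numbered pairs the correlations ran from -0.298 to 0.302, and 17 were over 0.1. Gad2 and Camk2a pairs were all negative (-0.253, -0.225 and -0.178).

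The text names the members, the other arms of their hairpins, miR-128, and for each member the 3 names most like it. The members and lists were chosen with earlier results of these data known.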

Additional observations from a re-analysis of the deposited data

Results flagged for a closer look

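The change from whole tissue to a cell class differed between Purkinje cells against Cerebellum and Gad2 cells against Neocortex for 4 of the names reported. The differences of the log2 changes were -1.50 for miR-23a, -2.69 for miR-27a, 1.07 for miR-27b and 1.75 for miR-27b* (limma without pairing, adjusted p = 0.00159, 1.12e-05, 0.00135 and 0.0187). This contrast was added after the values were seen, and 45.8% of all names passed in it. Antibody differs in both pairs, and pooling differs by 3 tissues against 1 in the cerebellar pair and 4 against 1 in the neocortical pair. Strain differs only in the neocortical pair. These cannot be told apart from the cell classes.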

How the results depend on the processing

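Of 916 values recomputed under alternatives, 861 held. Log2 changes of miRNAs among them kept their direction and their side of the threshold, and counts stayed close to the main count. Log2 ratios among them kept their direction and moved by less than the spread between replicates. No ratio could pass 0.05 by its exact test, so the ratios had no call to keep. The uncalled miR-27b to miR-27a log2 ratio changed sign by less than the spread between replicates in 4 more, without Gad2 replicate 1 in Gad2 minus Neocortex (0.0020), without Gad2 replicate 3 (-0.16) or Camk2a replicate 2 (-0.042) in Gad2 minus Camk2a, and without SST replicate 2 in PV minus SST (0.056). With TMM, relative log expression and DESeq2 factors, the log2 changes for Cerebellum minus Neocortex no longer passed for miR-24 (-0.16, -0.17 and -0.23) and miR-27a (-0.50, -0.51 and -0.56), nor did miR-24 for Purkinje minus Gad2 (-0.46, -0.42 and -0.44). edgeR kept each of these calls, at -0.51, -0.83 and -0.53. PV minus SST, never called, turned positive with TMM, relative log expression, edgeR and DESeq2 for miR-23b (0.14, 0.12, 0.050 and 0.11), miR-24 (0.29, 0.27, 0.20 and 0.26), miR-27a (0.49, 0.46, 0.40 and 0.46) and miR-27b (0.33, 0.30, 0.24 and 0.30). edgeR also turned the uncalled Purkinje minus Cerebellum changes of miR-24 (0.10) and miR-27b (0.22), and called miR-23b in the contrast of regions (0.76). Leaving out 1 library gave ranges of -0.78 to -0.32 for miR-24 and -0.98 to -0.60 for miR-27a in Cerebellum minus Neocortex, -0.16 to 0.031 for miR-27b in Purkinje minus Cerebellum, and -0.29 to 0.17 for miR-24 in Gad2 minus Neocortex. The ranges were -1.26 to -1.06 for miR-27a in PV minus Camk2a, -1.37 to -0.87 for miR-23a and -1.29 to -0.90 for miR-27a in SST minus Camk2a, and -0.27 to 0.12 for miR-27a in PV minus SST. For the miR-27b to miR-27a log2 ratio in SST minus Camk2a the range was -0.65 to -0.22. In the contrast of regions it was -0.37 to 0.090 for miR-24, 0.39 to 0.92 for miR-23b (called without Purkinje replicate 3 or Gad2 replicate 3) and 1.38 to 1.97 for miR-27b* (not called without Cerebellum replicate 1 or Gad2 replicate 2). Where a group was left with 1 library, that library was assumed to vary like the others. Leaving out 1 library in PV minus SST gave 94 (without PV replicate 1) to 130 called names, against 152 with all. TMM scaling moved the share of calls that were higher from 35.2% to 47.1% for Cerebellum minus Neocortex, 37.6% to 50.4% for Camk2a minus Neocortex, 69.5% to 41.9% for SST minus Camk2a and 13.8% to 46.5% for PV minus SST. The replicate block changed no call of a member, including the paired fit of Gad2 and Neocortex libraries only, in which 224 names were called against 235 without pairing. That paired fit gave larger adjusted p-values for the called members. Except where named, the cause was not tested. Depth limited the rare arms, since 3 reads stood at 0.211 to 2.44 RPM.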
